A study of Mus musculus with 20 samples.

Results

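The genes described here are the 7 that encode the core of MHC class II antigen presentation: H2-Aa, H2-Ab1, H2-Eb1, Cd74, H2-DMa, H2-DMb1 and Ciita. They were chosen by symbol, and all 7 were found among the 55536 genes of the count table and among the 16419 genes that passed the expression filter. The data are RNA-seq read counts from hippocampus of male mice, aged 12 weeks, with the strain label C57BL/6J. The 4 groups, of 5 libraries each, were wild-type mice 7 days after 1 intraperitoneal injection of 3 mg/kg lipopolysaccharide (WT LPS), Fkbp5 knockout mice after the same dose (KO LPS), wild-type mice given saline (WT saline) and Fkbp5 knockout mice given saline (KO saline). Lipopolysaccharide (LPS) is a bacterial cell wall component that triggers systemic inflammation, and Fkbp5 encodes a co-chaperone of the glucocorticoid receptor. The labels do not describe the knockout allele, and they number the replicates of a group without saying whether each was a separate animal, so p-values measure the spread between these libraries.

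MHC class II molecules are heterodimers of an alpha and a beta chain that carry peptides from endosomes to the surface of antigen-presenting cells, where CD4+ T cells read them. The invariant chain escorts the new heterodimer and fills its groove, and the DM heterodimer later exchanges the remaining fragment for antigenic peptide. CIITA is the coactivator that assembles with RFX and NF-Y factors on the conserved X and Y boxes of class II promoters. In healthy brain parenchyma class II is low, border macrophages and dendritic cells of the meninges and choroid plexus carry more of it, and microglia can gain it in inflammation.

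Promoter stretches of the class II genes are shown because they carry the letters that define the family's common control region. They are RefSeq sequences of build GRCm38.p6, written 5′ to 3′ on the strand of the gene, and each runs from 60 bases before to 10 bases after the letters GATTGG of the Y box core. Capitals mark GATTGG and, upstream of it, the X box core AACNNATGNTGC or, in H2-Aa, the cyclic AMP response element TGACGTCA. The genes H2-Aa (I-A alpha chain; chr17:34287857-34287932, minus strand), H2-Eb1 (I-E beta chain; chr17:34305747-34305822, plus strand) and H2-DMb1 (DM beta chain; chr17:34153069-34153144, plus strand) are followed by the related chain genes H2-Ob (chr17:34238787-34238862, plus strand), H2-DMb2 (chr17:34145098-34145173, plus strand) and H2-Eb2 (chr17:34325514-34325589, plus strand).
H2-Aa: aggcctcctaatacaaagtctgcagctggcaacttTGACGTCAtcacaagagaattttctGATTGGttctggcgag
H2-Eb1: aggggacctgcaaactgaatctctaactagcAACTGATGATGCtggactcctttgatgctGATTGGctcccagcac
H2-DMb1: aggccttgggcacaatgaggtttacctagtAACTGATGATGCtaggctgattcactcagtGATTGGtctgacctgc
H2-Ob: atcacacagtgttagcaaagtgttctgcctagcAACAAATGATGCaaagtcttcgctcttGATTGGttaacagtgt
H2-DMb2: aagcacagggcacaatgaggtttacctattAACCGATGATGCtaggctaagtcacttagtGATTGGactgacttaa
H2-Eb2: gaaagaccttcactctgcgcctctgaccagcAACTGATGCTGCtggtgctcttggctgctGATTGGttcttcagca

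The upstream letters and the Y box core were separated by 15 to 18 bases in these 6 stretches, and the Y box core began 49 to 101 bases before the RefSeq start. Both strands of every 300-base promoter (250 bases before to 50 after the start) were searched. The X box letters are the 12 bases most alike in the 5 promoters of H2-DMb1, H2-DMb2, H2-Ob, H2-Eb1 and H2-Eb2, with N where they differ, and all letters were chosen after these promoters had been read. The class II set held 9 promoters of 8 genes, with 2 starts of H2-DMa, 1 of them without GATTGG; H2-Ab1, Cd74 and Ciita are not in it. GATTGG stood in 8 of 9 class II promoters and in 16.1% of all 32851 promoters. AACNNATGNTGC stood in 5 of 9 class II promoters, the 5 it was drawn from, and in 0.122% of all promoters. Both motifs together stood in 5 of 9 and in 0.0396% of all promoters. TGACGTCA stood in 1 of 9 class II promoters, that of H2-Aa, and in 1.79% of all promoters. These matches describe letters and were not tested for binding. For H2-DMb1 the shared control letters come with a closely similar transcript, since its transcript aligned to that of H2-DMb2 at 95.7% identity over 1081 bases, 77.0% of its length. Reads of H2-DMb1 and H2-DMb2 may therefore have been split or lost in the authors' counting, and values of H2-DMb1 are uncertain to that extent.

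H2-Aa (chr17:34282744-34287823, minus strand, mm10) encodes the I-A alpha chain, H2-Ab1 (chr17:34257689-34269419, plus strand) the I-A beta chain and H2-Eb1 (chr17:34305867-34316674, plus strand) the I-E beta chain. Cd74 (chr18:60803848-60812652, plus strand) encodes the invariant chain. H2-DMa (chr17:34119541-34139101, plus strand) and H2-DMb1 (chr17:34153072-34160230, plus strand) encode the DM chains, and Ciita (chr16:10480059-10528418, plus strand) encodes the transactivator. The 5 members on chromosome 17 lie 5.60 to 5.79 Mb from Fkbp5.

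Total counts were 16652992 to 27230202 per library, and Fkbp5 itself was the label check. Fkbp5 averaged 30.7 ± 4.45 CPM (edgeR counts scaled to a common library total) in KO saline and 63.1 ± 6.71 CPM in WT saline (SD, n = 5 each). After LPS it averaged 29.5 ± 4.06 CPM in KO and 66.2 ± 4.87 CPM in WT (SD, n = 5 each), with no overlap between genotypes at either treatment. It fell by 1.04 and 1.17 on the log2 scale in the knockout after saline and after LPS (edgeR's quasi-likelihood test, adjusted p = 2.79e-05 and 7.05e-06). Fkbp5 reads thus remained in the knockout libraries. The check sets the labelled genotypes apart, and whether a working transcript was lost was not tested. The summed level of 10 hippocampal marker genes was 2671 to 4211 CPM per library, most of it Hpca (2313 CPM over the 20 libraries). No reference tissue was compared. The summed level of 10 thalamus marker genes was 150, 141 and 114 CPM in WT LPS replicates 1 and 4 and KO LPS replicate 1, against 42.9 to 84.7 CPM in the other 17 libraries. All 3 of these libraries are LPS libraries, so the class II values are given with and without them. Expression over all genes also split the libraries into replicates 1 and 2 of every group (8 libraries) and replicates 3 to 5 (12 libraries); the labels give no reason for this, and values within each set are given too.

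Class II RNA was scarce. Per kilobase of exon, H2-DMa had the highest level, at 4.17 ± 0.491 CPM per kb over all libraries (SD, n = 20), followed by Cd74 at 1.54 ± 0.660. H2-DMb1 (0.690 ± 0.230), H2-Eb1 (0.642 ± 0.300), H2-Ab1 (0.467 ± 0.245) and H2-Aa (0.288 ± 0.159 CPM per kb) came next. H2-DMb1 lay below Cd74 by more than the SD of either, while H2-Eb1, H2-Ab1 and H2-Aa each lay within 1 SD of the gene before it. Ciita was lowest at 0.0799 ± 0.0639 CPM per kb. The spread differed in the opposite sense, with a coefficient of variation over the 20 libraries of 11.8% for H2-DMa, 33.3% for H2-DMb1, 42.9% to 55.2% for Cd74 and the 3 chains, and 80.0% for Ciita. These levels rested on 222 to 459 reads per library for H2-DMa, 19 to 136 for Cd74, 15 to 52 for H2-DMb1, and 4 to 58 for H2-Aa, H2-Ab1 and H2-Eb1. Of the exon bases of H2-DMa, 10.4% overlap Brd2, a bromodomain gene on the opposite strand with 159.9 CPM, and 3.45% of those of Ciita overlap Dexi. The strand setting of the counting is not given in the sources used here, so reads in these overlaps cannot be assigned.

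**Figure D1:**
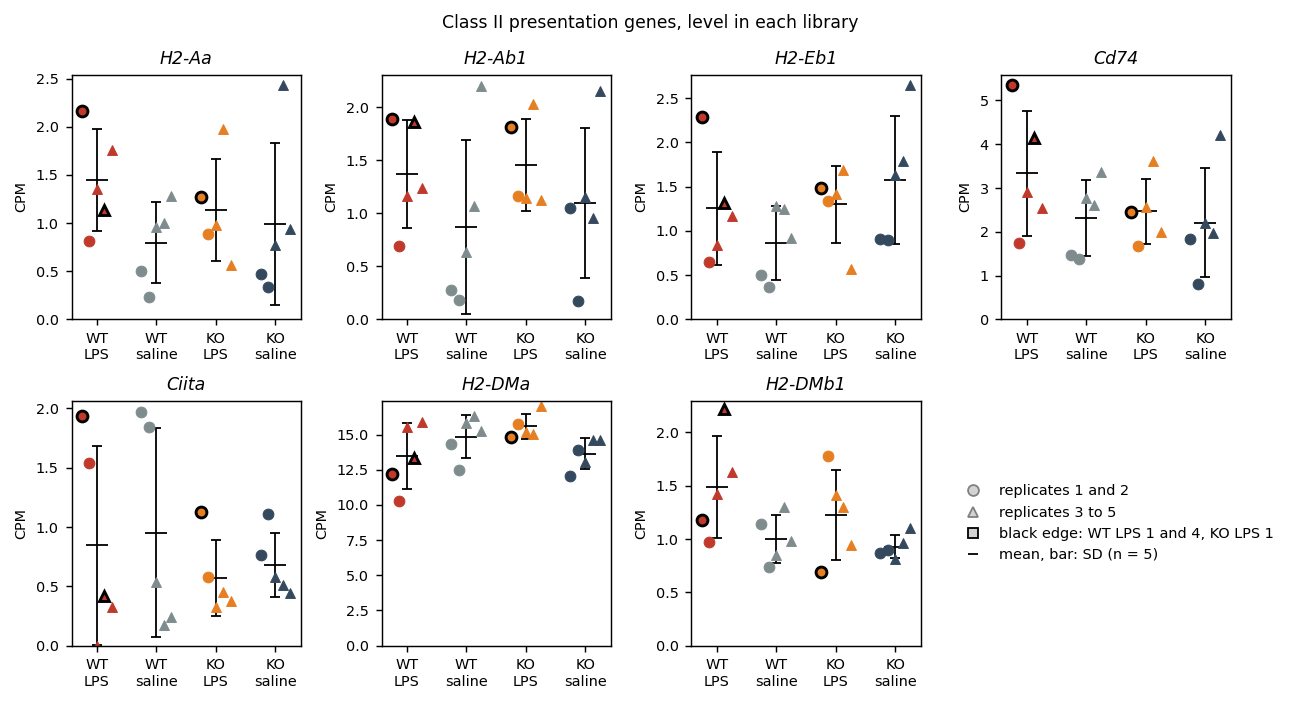
Level of the 7 class II genes in each of the 20 libraries (CPM, y axis from 0), with the mean and SD of each group (n = 5); circles are replicates 1 and 2, triangles replicates 3 to 5, and black edges mark WT LPS 1 and 4 and KO LPS 1. The groups overlap for every gene except H2-DMa, whose KO LPS libraries (14.9 CPM and above) all lie above its KO saline libraries (14.6 CPM and below).

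After LPS in wild-type mice, 5 of the 7 genes had fitted differences above 0 and 2 below, where 44.8% of all genes tested were above 0, and none of the 7 passed the test. The median log2 difference of the 7 was 0.56, against -0.015 over all 16419 genes tested. In knockout mice 5 of the 7 were above 0 after LPS and 2 below, where 53.1% of all genes were above 0, with a median of 0.19 against 0.012 over all genes. Few genes of any kind passed at this time point: edgeR's quasi-likelihood test called 0 genes (0%) after LPS in wild-type mice, where 340 (2.07%) had an unadjusted p below 0.05, and 1 gene (0.00609%) in knockout mice, where 287 (1.75%) did. DESeq2's Wald test called 2 and 7 genes, and with the replicate number as a block edgeR called 3 and 5, none of them a class II member. Groups without overlap were as rare: after LPS 0.274% of genes lay wholly higher and 0.171% wholly lower in wild-type mice, with no member among them, and 0.286% and 0.104% did in knockout mice, with H2-DMa among the higher ones.

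H2-Aa, the I-A alpha chain, had 2.17, 0.812, 1.35, 1.14 and 1.76 CPM in WT LPS replicates 1 to 5, against 0.503, 0.231, 0.960, 1.01 and 1.28 CPM in WT saline replicates 1 to 5. In KO LPS replicates 1 to 5 it had 1.27, 0.891, 0.981, 1.98 and 0.564 CPM, against 0.471, 0.341, 0.769, 2.43 and 0.940 CPM in KO saline replicates 1 to 5. The groups overlapped in both genotypes, replicates 1 and 2 of both saline groups were the lowest libraries, and KO saline 4 was the highest of all 20. The log2 difference of LPS from saline was 0.88 (SE 0.50, 95% interval -0.17 to 1.92) in wild-type and 0.23 (SE 0.49, -0.80 to 1.27) in knockout mice, and neither passed edgeR's quasi-likelihood test (adjusted p = 1.00 each). In bulk tissue such as this, a change in the number of class II cells and a change in RNA per cell cannot be told apart.

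H2-Ab1, the I-A beta chain, had 1.89, 0.690, 1.16, 1.86 and 1.24 CPM in WT LPS replicates 1 to 5, against 0.274, 0.184, 0.640, 1.07 and 2.20 CPM in WT saline replicates 1 to 5. KO LPS replicates 1 to 5 had 1.81, 1.16, 1.15, 2.03 and 1.13 CPM, against 1.05, 0.170, 1.15, 0.959 and 2.16 CPM in KO saline replicates 1 to 5. Replicate 5 of each saline group was that group's highest library and replicate 2 its lowest, and the groups overlapped. The log2 difference after LPS was 0.67 (SE 0.56) in wild-type and 0.42 (SE 0.55) in knockout mice, and neither passed (edgeR's quasi-likelihood test, adjusted p = 1.00 each). The wild-type difference was 1.36 without WT saline 5 and 0.40 without WT saline 2.

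H2-Eb1, the I-E beta chain, had 2.29, 0.649, 0.838, 1.32 and 1.17 CPM in WT LPS replicates 1 to 5, against 0.503, 0.369, 1.28, 1.24 and 0.918 CPM in WT saline replicates 1 to 5. KO LPS replicates 1 to 5 had 1.49, 1.34, 1.42, 1.69 and 0.564 CPM, against 0.905, 0.895, 1.63, 1.79 and 2.65 CPM in KO saline replicates 1 to 5. Its highest library was KO saline 5, and KO LPS 5 was among the lowest. The log2 difference after LPS was 0.56 (SE 0.42) in wild-type and -0.26 (SE 0.41) in knockout mice, opposite in sign, and neither passed (edgeR's quasi-likelihood test, adjusted p = 1.00 each).

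Cd74, the invariant chain, had 5.36, 1.74, 2.90, 4.14 and 2.54 CPM in WT LPS replicates 1 to 5, against 1.46, 1.38, 2.77, 2.60 and 3.36 CPM in WT saline replicates 1 to 5. KO LPS replicates 1 to 5 had 2.46, 1.68, 2.56, 3.61 and 2.01 CPM, against 1.85, 0.809, 2.21, 1.98 and 4.20 CPM in KO saline replicates 1 to 5. WT LPS 1 and 4, both among the thalamus-high libraries, were the first and the third highest of the 20, with KO saline 5 between them. The log2 difference after LPS was 0.54 (SE 0.37) in wild-type and 0.16 (SE 0.37) in knockout mice, and neither passed (edgeR's quasi-likelihood test, adjusted p = 1.00 each).

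H2-DMa, the DM alpha chain, was the steadiest member. It had 12.2, 10.3, 15.5, 13.3 and 15.9 CPM in WT LPS replicates 1 to 5, against 14.3, 12.5, 15.8, 16.3 and 15.2 CPM in WT saline replicates 1 to 5. KO LPS replicates 1 to 5 had 14.9, 15.7, 15.2, 15.1 and 17.1 CPM, against 12.1, 13.9, 13.03, 14.6 and 14.6 CPM in KO saline replicates 1 to 5. All 5 KO LPS libraries lay above all 5 KO saline libraries, as was so for 0.286% of all genes tested, while the wild-type groups overlapped with a lower mean after LPS. The log2 difference after LPS was 0.19 (SE 0.11, 95% interval -0.05 to 0.43) in knockout and -0.14 (SE 0.11, -0.38 to 0.09) in wild-type mice, and neither passed (edgeR's quasi-likelihood test, adjusted p = 1.00 each). The interaction, the difference between these differences, was 0.34 (SE 0.16, unadjusted p = 0.0508, adjusted p = 1.00, edgeR's quasi-likelihood test). Brd2, which overlaps H2-DMa on the opposite strand, averaged 167.6 ± 28.6 CPM in KO LPS and 169.9 ± 24.4 CPM in KO saline (SD, n = 5 each), and its part in the H2-DMa counts was not tested.

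H2-DMb1, the DM beta chain, had 1.18, 0.974, 1.42, 2.22 and 1.63 CPM in WT LPS replicates 1 to 5, against 1.14, 0.738, 0.854, 1.30 and 0.979 CPM in WT saline replicates 1 to 5. KO LPS replicates 1 to 5 had 0.688, 1.78, 1.42, 1.30 and 0.941 CPM, against 0.869, 0.895, 0.817, 0.959 and 1.11 CPM in KO saline replicates 1 to 5. The groups overlapped in both genotypes, and KO saline was the tightest group. The log2 difference after LPS was 0.56 (SE 0.27) in wild-type and 0.40 (SE 0.27) in knockout mice. Over both genotypes it was 0.48 (SE 0.19, 95% interval 0.08 to 0.88), and did not pass (unadjusted p = 0.0212, adjusted p = 1.00, edgeR's quasi-likelihood test). It was the 1 of 42 member values (7 genes in 6 comparisons) with an unadjusted p below 0.05. With the replicate number as a block 7 of 42 had one, namely H2-Aa for LPS in wild-type mice, H2-Aa, H2-Ab1 and H2-DMb1 for LPS over both genotypes, H2-Eb1 for knockout against wild-type after saline, and H2-DMa for knockout against wild-type after LPS and for the interaction. None of the 42 passed with the block (smallest adjusted p = 0.521, edgeR's quasi-likelihood test). Over all 16419 genes the block also raised the number with an unadjusted p below 0.05 in every comparison. For LPS it rose from 340 to 794 in wild-type mice, from 287 to 1135 in knockout mice and from 445 to 1200 over both genotypes. For knockout against wild-type it rose from 438 to 1306 after saline and from 537 to 1373 after LPS, and for the interaction from 182 to 591.

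Ciita, the transactivator, had 1.93, 1.54, 0, 0.420 and 0.326 CPM in WT LPS replicates 1 to 5, against 1.97, 1.84, 0.534, 0.178 and 0.245 CPM in WT saline replicates 1 to 5. KO LPS replicates 1 to 5 had 1.12, 0.582, 0.327, 0.452 and 0.376 CPM, against 0.760, 1.11, 0.577, 0.511 and 0.442 CPM in KO saline replicates 1 to 5. The 0 in WT LPS 3 allows a level of up to 0.193 CPM (3 counts), and replicates 1 and 2 were the highest libraries of every group. The log2 difference after LPS was -0.14 (SE 0.70) in wild-type and -0.23 (SE 0.73) in knockout mice, and neither passed (edgeR's quasi-likelihood test, adjusted p = 1.00 each).

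Taking LPS over both genotypes, 6 of the 7 members were above 0 and 1, Ciita, was below, where 49.3% of all genes were above 0. The median log2 difference was 0.35, against -0.0019 over all genes tested. None passed, in a comparison where edgeR's quasi-likelihood test called 7 genes (0.0426%), 445 genes (2.71%) had an unadjusted p below 0.05, and DESeq2's Wald test called 19; with the replicate block edgeR called 27. MHC class I genes, which present peptides to CD8+ T cells, were more abundant. The 3 examined, H2-K1, H2-D1 and B2m, were all above 0 with an unadjusted p below 0.05 (edgeR's quasi-likelihood test). Of these, 1 was called, H2-D1. H2-D1, a class I heavy chain, averaged 54.0 ± 6.92 CPM in WT LPS and 34.9 ± 6.44 CPM in WT saline, and 53.1 ± 7.40 CPM in KO LPS and 31.3 ± 6.25 CPM in KO saline (SD, n = 5 each). H2-D1 rose by 0.70 on the log2 scale over both genotypes (SE 0.11, adjusted p = 0.0128, edgeR's quasi-likelihood test), about the size of the fitted differences of H2-Aa (0.56, SE 0.35) and H2-Ab1 (0.55, SE 0.39) but with a far smaller error. Without the 3 thalamus-high libraries H2-D1 was at 0.62 and did not pass (SE 0.12, adjusted p = 0.187; 0.0228 with the library set as a term), nor did it in replicates 1 and 2 alone (1.03, adjusted p = 0.487) or replicates 3 to 5 alone (0.49, adjusted p = 0.138, edgeR's quasi-likelihood test). The difference between class I and class II genes was not tested.

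Genotype made no called difference to any member. After saline, knockout minus wild-type differences were above 0 for 3 members and below 0 for 4, where 44.5% of all genes were above 0, with a median of -0.07 against -0.022 over all genes. There edgeR's quasi-likelihood test called 28 genes (0.171%; 59 with the replicate block and 48 with DESeq2) with no member among them, and 438 genes (2.67%) had an unadjusted p below 0.05. The member farthest from 0 was H2-Eb1, which averaged 1.58 ± 0.729 CPM in KO saline and 0.863 ± 0.417 CPM in WT saline (SD, n = 5 each). Its log2 difference of 0.87 (SE 0.42, 95% interval -0.01 to 1.74) did not pass (unadjusted p = 0.0516, adjusted p = 1.00, edgeR's quasi-likelihood test), and its groups overlapped. After LPS, 3 members were above 0 and 4 below, where 50.5% of all genes were above 0, with a median of -0.26 against 0.0019 over all genes. There edgeR's quasi-likelihood test called 24 genes (0.146%; 63 with the replicate block and 53 with DESeq2), again with no member, and 537 genes (3.27%) had an unadjusted p below 0.05. The genotypes overlapped for every member, while 0.432% of genes lay wholly higher and 0.305% wholly lower in the knockout after saline, and 0.457% and 0.372% after LPS. Cd74 averaged 2.46 ± 0.734 CPM in KO LPS and 3.34 ± 1.42 CPM in WT LPS (SD, n = 5 each), a log2 difference of -0.44 (SE 0.37) that did not pass. H2-DMa averaged 15.6 ± 0.883 CPM in KO LPS and 13.5 ± 2.35 CPM in WT LPS (SD, n = 5 each), a log2 difference of 0.21 (SE 0.11, unadjusted p = 0.0751, adjusted p = 1.00, edgeR's quasi-likelihood test). For the interaction, 6 members were below 0 and H2-DMa above, where 54.8% of all genes were above 0, with a median of -0.26 against 0.022 over all genes. No gene was called there by edgeR's quasi-likelihood test (0%) or by DESeq2, and 182 genes (1.11%) had an unadjusted p below 0.05. These comparisons share groups, so their values are not independent of each other.

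The wild-type differences of 3 genes depended on the thalamus-high libraries. Without WT LPS 1 and 4 and KO LPS 1, Cd74 averaged 2.40 ± 0.592 CPM in WT LPS (SD, n = 3), against 2.32 ± 0.865 CPM in WT saline (SD, n = 5), and its log2 difference was 0.05 in place of 0.54. H2-Eb1 averaged 0.887 ± 0.266 CPM in the remaining WT LPS libraries (SD, n = 3), against 0.863 ± 0.417 CPM in WT saline (SD, n = 5), a log2 difference of 0.04 in place of 0.56. H2-Ab1 moved to 0.25 in place of 0.67. H2-Aa kept more of its difference, at 0.72 in place of 0.88, and H2-DMb1 was at 0.41 in place of 0.56. In the knockout, where 1 library left, the differences of Cd74, H2-Aa and H2-Ab1 were 0.16, 0.19 and 0.32, and that of H2-DMb1 was 0.56. No member passed edgeR's quasi-likelihood test with these libraries left out, in wild-type mice (1 gene called) or in knockout mice (1 gene called). Over both genotypes, where 1 gene was then called, H2-Eb1 was at -0.13 in place of 0.15 and H2-DMb1 was at 0.49 (unadjusted p = 0.0165). Whether thalamic tissue had a part in the class II levels was not tested.

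Within the library sets the wild-type differences of the chains were of unequal size. In replicates 1 and 2, H2-Aa averaged 1.49 CPM in WT LPS and 0.367 CPM in WT saline, a log2 difference of 2.02 (SE 0.63). In replicates 3 to 5 it averaged 1.42 CPM in WT LPS and 1.08 CPM in WT saline, a log2 difference of 0.39 (SE 0.45). For H2-Ab1 the log2 differences in wild-type mice were 2.48 in replicates 1 and 2 and 0.15 in replicates 3 to 5, for H2-Eb1 1.75 and -0.04, and for Cd74 1.33 and 0.14. In knockout mice the same order held, at 1.38 and -0.18 for H2-Aa, 1.24 and 0.01 for H2-Ab1, 0.64 and -0.71 for H2-Eb1, and 0.62 and -0.04 for Cd74. H2-DMb1 in wild-type mice went the other way, at 0.22 in replicates 1 and 2 and 0.76 in replicates 3 to 5. None of these values passed edgeR's quasi-likelihood test within its set, and the difference between the sets was not tested. Replicates 1 and 2 hold 2 libraries a group, among them 2 of the 3 thalamus-high ones.

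**Figure D2:**
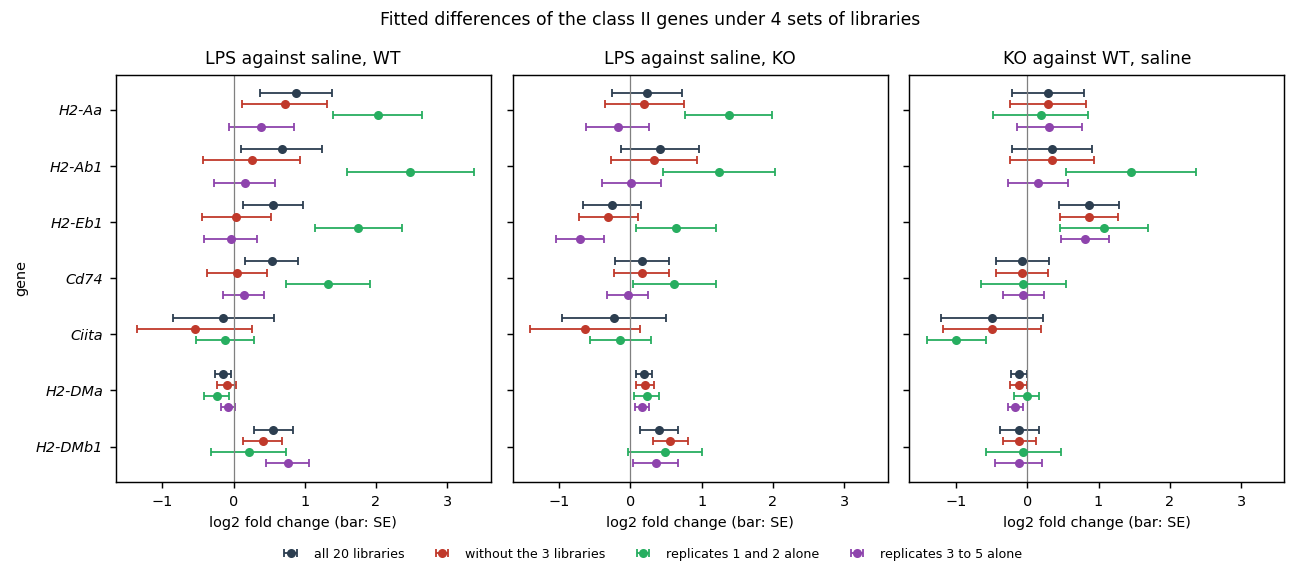
Fitted log2 fold change (x axis, bars are SE) of each class II gene for LPS against saline in WT and in KO and for KO against WT after saline, in 4 selections of libraries. H2-Aa in WT lies at 0.88 with all 20 libraries, 0.72 without the 3 thalamus-high libraries, 2.02 in replicates 1 and 2 and 0.39 in replicates 3 to 5; Ciita fell below the expression filter in replicates 3 to 5 and has no point there.

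The library sets also differed in level. Ciita averaged 1.36 ± 0.541 CPM in replicates 1 and 2 (SD, n = 8) and 0.366 ± 0.164 CPM in replicates 3 to 5 (SD, n = 12), a ratio of 3.71, and its lowest library of replicates 1 and 2 (0.582 CPM) lay above its highest of replicates 3 to 5 (0.577 CPM). The other 6 members had lower means in replicates 1 and 2, at ratios of 0.648 (H2-Ab1) to 0.873 (H2-DMa). Dexi, the opposite-strand neighbour of Ciita, averaged 36.7 ± 5.98 CPM in replicates 1 and 2 (SD, n = 8) and 37.3 ± 2.60 CPM in replicates 3 to 5 (SD, n = 12). Because the sets were recognised from expression over all genes, these differences carry no test. The share of all genes without overlap between the sets was not computed.

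**Figure D3:**
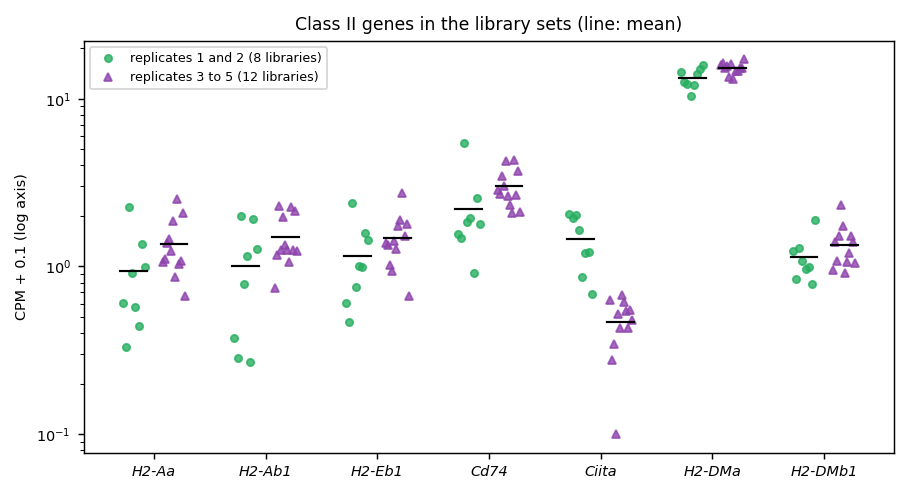
Level of each class II gene (CPM + 0.1, log axis) in replicates 1 and 2 (circles, 8 libraries) and replicates 3 to 5 (triangles, 12 libraries), with the mean of each set as a line. Ciita averages 1.36 CPM in replicates 1 and 2 and 0.366 CPM in replicates 3 to 5. The other 6 genes have lower means in replicates 1 and 2. Ciita does not overlap between the sets, by a margin of 0.582 against 0.577 CPM. The share of all genes without such overlap was not computed.

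The chains and Cd74 varied together over all libraries and within replicates 1 and 2, while in replicates 3 to 5 only H2-Ab1 and Cd74 had an r above 0.36 among the 6 pairs of these 4 genes. Over the 20 libraries Pearson's r of log2 CPM was 0.84 between H2-Ab1 and Cd74, 0.75 between H2-Aa and H2-Ab1, and 0.63 to 0.71 for the other pairs among these 4 genes. The DM chains and Ciita stood outside this group: r with the 4 genes was 0.13 to 0.25 for H2-DMa, 0.24 to 0.39 for H2-DMb1 and -0.40 to -0.13 for Ciita. These r describe 20 libraries that share library sets and groups. The r within a set, given next, also span the 4 groups, and their permutations shuffled libraries across groups. The permutation p-values therefore do not set group differences apart from variation within groups. Within replicates 1 and 2, H2-Ab1 and Cd74 had r = 0.81 and Spearman's rho = 0.93 (exact permutation p = 0.00109 and 0.00223, two-sided, 8 libraries), r = 0.70 without the 2 libraries farthest from the median of H2-Ab1, and an adjusted p of 0.0458 over the 42 relations between members computed within the sets. Within replicates 3 to 5 the same pair had r = 0.72 and rho = 0.69 (permutation p = 0.00827 and 0.0168, two-sided, 12 libraries), r = 0.61 without the 2 farthest libraries, and an adjusted p of 0.0715. The other 5 pairs had r = 0.67 to 0.87 within replicates 1 and 2 (0.35 to 0.92 without the 2 farthest libraries) but 0.11 to 0.36 within replicates 3 to 5 (-0.33 to 0.35).

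The genes whose log2 CPM was most like the joint level of H2-Aa, H2-Ab1, H2-Eb1 and Cd74 over the 20 libraries were Nxn (r = 0.86), Serping1 (0.84), Col1a2 (0.83), Lfng (0.82), Slc13a3 (0.81), Agtrap (0.81), Tmem86a (0.80) and Spp1 (0.80). Col1a2 encodes a fibrillar collagen chain of fibroblasts and Serping1 the C1 inhibitor of complement. Among the members left out of that joint level, H2-DMb1 had r = 0.38, H2-DMa 0.21 and Ciita -0.34. H2-K1, a class I heavy chain, had r = 0.67. The order depended on the libraries: without the 3 thalamus-high libraries Tmem86a was first (r = 0.89), Agtrap (0.76) ranked 267 and Spp1 (0.75) ranked 354. With group and library set means removed, Nxn (0.85) ranked 10, Lfng (0.61) ranked 463 and Agtrap (0.60) ranked 530.

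Marker lists of other cells were set beside the summed level of these 4 class II genes, which was 3.90 to 11.7 CPM in WT LPS and 2.17 to 7.77 CPM in WT saline, and 4.26 to 9.31 CPM in KO LPS and 2.22 to 9.95 CPM in KO saline. The 10 border macrophage markers, such as Mrc1 and Cd163, were all detected, and their sum was 20.05 to 34.8 CPM in WT LPS, 16.1 to 27.5 CPM in WT saline, 14.6 to 25.8 CPM in KO LPS and 16.3 to 29.0 CPM in KO saline. Across libraries the class II sum had r = 0.76 with this list in replicates 1 and 2 (8 libraries) and 0.75 in replicates 3 to 5 (12 libraries), as a description. Stab1 made up most of the border macrophage sum. It averaged 14.3 CPM over the 20 libraries, against 2.60 CPM for Mrc1 and 1.25 CPM for Cd163. The 12 meningeal fibroblast markers, such as Dcn and Lum, were all detected, at 87.0 to 187 CPM in WT LPS, 68.9 to 137 CPM in WT saline, 95.8 to 143 CPM in KO LPS and 85.3 to 214 CPM in KO saline. Their r with the class II sum was 0.90 in replicates 1 and 2 and 0.36 in replicates 3 to 5. Without the 2 libraries farthest from the median of the fibroblast sum in each set it was 0.72 and 0.66. After LPS, 11 of the 12 fibroblast markers were above 0 in wild-type mice, where 44.8% of all genes were. In knockout mice all 12 were below 0, where 53.1% of all genes were above 0. None was called in either genotype. Dcn, the most abundant of the 12, averaged 29.5 CPM in WT LPS and 42.9 CPM in WT saline. The 10 microglia markers, such as Tmem119 and P2ry12, were all detected, at 329 to 579 CPM in WT LPS, 327 to 559 CPM in WT saline, 297 to 523 CPM in KO LPS and 304 to 452 CPM in KO saline. Their r with the class II sum was -0.15 in replicates 1 and 2 and -0.24 in replicates 3 to 5. A list of 12 activated microglia markers, most of its sum Apoe, had r = 0.28 and 0.23 in the same order. Without the 2 libraries farthest from the median of that list's sum, r was -0.01 and -0.20. For LPS over both genotypes 9 of its 11 tested genes were above 0 (49.3% of all genes). Of these, 1 was called (0.0426% of all genes). The thalamus list had r = 0.87 in replicates 1 and 2, which was 0.49 without the 2 libraries farthest from the median of the thalamus sum, and 0.42 in replicates 3 to 5. The part of these cells in the class II levels was not tested.

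**Figure D4:**
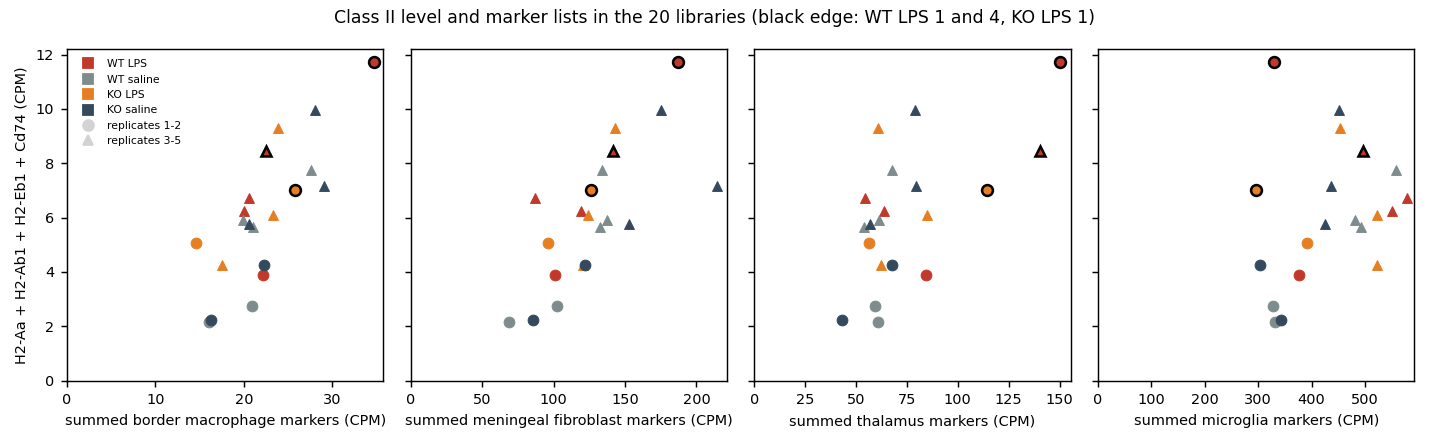
Summed level of H2-Aa, H2-Ab1, H2-Eb1 and Cd74 (CPM, y axis) against the summed level of 4 marker lists (CPM, x axes) in the 20 libraries; colours are groups, circles replicates 1 and 2, triangles replicates 3 to 5, and black edges WT LPS 1 and 4 and KO LPS 1. WT LPS 1 is highest in class II (11.7 CPM), in border macrophage markers (34.8 CPM) and in thalamus markers (150 CPM). Its microglia sum (329 CPM) lies inside the range of replicates 1 and 2. Every library of replicates 1 and 2 has a lower microglia sum than every library of replicates 3 to 5.

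Lists of other immune cells were summed in the same way. The dendritic cell list had all 11 markers detected in WT LPS and KO LPS and 10 in WT saline and KO saline, where Ifi205 was at 0, and its sum was 10.96 to 22.01 CPM in WT LPS, 12.2 to 23.1 CPM in WT saline, 13.9 to 27.8 CPM in KO LPS and 13.03 to 15.98 CPM in KO saline. Of the B cell markers, Ms4a1 had 10 reads over all 20 libraries. The 10 T cell markers summed to 2.68 to 3.67 CPM in WT LPS, 2.31 to 3.85 CPM in WT saline, 2.77 to 4.35 CPM in KO LPS and 2.61 to 3.93 CPM in KO saline. Lck (537 reads over all libraries), Trac (387) and Il7r (208) made up most of it, while the T cell receptor subunit Cd3e had 26 reads and Cd3d 5, with Cd3d at 0 in both saline groups and Trbc1 at 0 in KO saline. The B cell sum was 15.2 to 20.8 CPM in WT LPS, 14.9 to 20.8 CPM in WT saline, 13.4 to 23.1 CPM in KO LPS and 11.01 to 18.56 CPM in KO saline, most of it Ighm. Monocyte and neutrophil markers summed to 1.34 to 2.06 CPM in WT LPS and 0.228 to 1.53 CPM in WT saline, and to 0.903 to 1.78 CPM in KO LPS and 0.320 to 0.940 CPM in KO saline. Their r with the class II sum was 0.70 in replicates 1 and 2 and -0.11 in replicates 3 to 5. In the same order of sets, r was 0.53 and 0.02 for the dendritic cell list and 0.55 and 0.26 for the T cell list. For the B cell list it was -0.003 and -0.66, and all of these are descriptions. Zbtb46 (7.37 CPM over the 20 libraries) and Flt3 (6.69 CPM) made up most of the dendritic cell sum.

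Of the other class II chain genes, H2-Ob alone passed the expression filter. H2-Ob, the beta chain of the DM inhibitor DO, averaged 0.823 ± 0.0799 CPM in WT LPS and 0.513 ± 0.377 CPM in WT saline, and 0.614 ± 0.168 CPM in KO LPS and 0.376 ± 0.180 CPM in KO saline (SD, n = 5 each). Its log2 difference over both genotypes was 0.69 (SE 0.30) and did not pass (unadjusted p = 0.0316, adjusted p = 1.00, edgeR's quasi-likelihood test). H2-Oa, the DO alpha chain, had 35 reads in WT LPS and 27 in WT saline, and 55 in KO LPS and 22 in KO saline, too few for the filter. H2-DMb2 had 26 reads in WT LPS and 21 in WT saline, and 29 in KO LPS and 19 in KO saline. H2-Eb2 had 2 reads in WT LPS and 0 in WT saline, and 1 in KO LPS and 0 in KO saline. H2-Ea was not matched by symbol. The annotation holds a gene named H2-Ea-ps, to which the H2-Aa transcript aligned at 68.2% identity over 575 bases, and its counts were not analysed. RNA of H2-Eb1 therefore does not show that an I-E heterodimer was made.

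In the peptide processing list of endosomal proteases and trafficking genes, 10 of 12 genes were above 0 and 2 below for LPS over both genotypes. The share above 0 over all genes was 49.3%. The median log2 difference of the list was 0.13 against -0.0019 over all genes, and none passed. The smallest p belonged to Ctss, the protease that trims the invariant chain, which averaged 97.9 ± 28.6 CPM in WT LPS and 71.0 ± 22.7 CPM in WT saline, and 96.3 ± 24.1 CPM in KO LPS and 60.3 ± 11.8 CPM in KO saline (SD, n = 5 each). Its log2 difference was 0.57 (SE 0.17, unadjusted p = 0.00347, adjusted p = 0.950, edgeR's quasi-likelihood test). Ctsh, an endosomal aminopeptidase, was at 0.31 (SE 0.12), Ifi30, a thiol reductase of antigen unfolding, at 0.45 (SE 0.18), and March1, a ubiquitin ligase that removes class II from the surface, at -0.22 (SE 0.10).

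Of the class II transcription factors, 6 of 9 tested genes were above 0 for LPS over both genotypes, where 49.3% of all genes were. Their median was 0.10, and none passed. Irf8 and Spi1, myeloid transcription factors, were at 0.37 (SE 0.11) and 0.34 (SE 0.12), while Rfxank of the RFX complex was at 0.23 (SE 0.15) and Nfyc of NF-Y at 0.07 (SE 0.05). In the interferon gamma list, whose ligand is the main inducer of Ciita, 11 of 16 tested genes were above 0. The share above 0 over all genes was 49.3%. The median of the list was 0.06, and none passed. Gbp2, an interferon-induced GTPase, was at 0.50 (SE 0.16), Igtp at 0.21 (SE 0.13), Irgm1 at 0.14 (SE 0.11) and Gbp3 at 0.25 (SE 0.20). Ifng itself was at 0 in WT LPS, KO LPS and KO saline.

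Of the costimulators and class II partners, 6 of 6 tested genes were above 0 for LPS over both genotypes, against 49.3% of all genes. Their median was 0.23, and 1 passed, where 0.0426% of all genes tested did. This list, like the others, was chosen with earlier results of these data known. Lag3, a receptor that binds class II, averaged 11.4 ± 1.38 CPM in WT LPS and 5.74 ± 0.450 CPM in WT saline, and 14.5 ± 4.15 CPM in KO LPS and 6.42 ± 1.03 CPM in KO saline (SD, n = 5 each). Lag3 rose by 1.08 on the log2 scale (SE 0.12, adjusted p = 0.000447, edgeR's quasi-likelihood test), and by 1.19 without the 3 thalamus-high libraries (adjusted p = 3.84e-05). In replicates 1 and 2 alone it was at 1.16 and did not pass (adjusted p = 0.974). Cd86, a costimulatory ligand, was at 0.32 (SE 0.14), Icam1, an adhesion ligand, at 0.44 (SE 0.19) and Icosl at 0.10 (SE 0.16), and none of these 3 passed.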

How the data were processed

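Hippocampal RNA of 20 libraries in 4 groups was sequenced after extraction with an RNeasy kit and NEBNext Ultra library preparation, per the labels. The file the authors deposited holds whole-number read counts for each gene, without normalization. Per the submitters' processing notes, Trimmomatic 0.38, FastQC, MultiQC and featureCounts 1.6.0 were used with mm10; the aligner, annotation release, strand setting and handling of multi-mapping reads are not given in the sources used here. Symbols and exon lengths came from GENCODE M21, and promoter sequences from RefSeq (GRCm38.p6).

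The test was that of edgeR 4.0.16 (R 4.3.3), with TMM scaling, filterByExpr by group, 1 fit of 4 group means over all 20 libraries, robust quasi-likelihood F tests and Benjamini-Hochberg adjustment over 16419 genes at 0.05, after the procedure was tested on simulated data. CPM are edgeR's, with TMM factors, and correlations use log2 CPM with a prior count of 0.5. A count of 0 is given as an upper limit of 3 counts, and this limit covers counting error only. Alternatives were DESeq2 1.42.0, its size factors, 2 other filters, a replicate block, a library set term, each set alone, leaving out the 3 thalamus-high libraries and leaving out each library.

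The members and gene lists were chosen with earlier results of these data known. From each list the text names up to 4 genes with the smallest p for LPS over both genotypes and any gene past the threshold, all other class II chains, and the 8 genes most correlated with the chains and Cd74. Same-numbered libraries of different groups deviated together from their group means (r = 0.227 to 0.837, median 0.430, over 30 pairs). Differently numbered libraries of the same set also did (r = 0.167 to 0.649, median 0.395). The main test did not pair libraries, and the replicate number entered only as a block in alternative fits.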

Additional observations from a re-analysis of the deposited data

Results flagged for a closer look

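Of the 28 groups of 5 libraries examined (7 genes in 4 groups), 1 held a library set far from the others. H2-Aa in KO saline 4 was at 2.43 CPM, while the other 4 KO saline libraries had 0.341 to 0.940 CPM; its gap to the nearest of them was 0.713 of the group's whole range, above the critical value of 0.71. Chance marks about 1 group in 20. Without that library the log2 difference of KO saline from WT saline for H2-Aa was -0.33, against 0.29 with it, and neither passed edgeR's quasi-likelihood test.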

How the results depend on the processing

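No class II member passed the threshold under any of the 31 alternatives (0 of 1296 values; smallest adjusted p 0.211 in edgeR's quasi-likelihood test, H2-Eb1, KO against WT after saline, in replicates 3 to 5 alone). Ciita had no value in replicates 3 to 5 alone, where it failed the filter. The sign turned in 65 values of 21 of the 42 member differences, 40 of them on leaving out 1 library.

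Log2 values with a turned sign, in replicates 3 to 5 alone, were -0.042 for H2-Eb1 and LPS in WT, -0.37 for H2-Eb1 and LPS over both genotypes, and -0.18 for H2-Aa and -0.036 for Cd74 and LPS in KO. In replicates 1 and 2 alone, H2-Eb1 was 0.64 for LPS in KO and -0.043 for KO against WT after LPS, H2-DMa -0.0051 for LPS over both, and H2-DMb1 0.22 for KO against WT after LPS and 0.27 for the interaction. Without the 3 thalamus-high libraries (then with the set term, then with the replicate block), H2-Eb1 for LPS over both was -0.13, -0.12 and -0.16, H2-DMb1 for KO against WT after LPS 0.044, 0.066 and 0.036, H2-DMb1 for the interaction 0.15, 0.18 and 0.14, and Cd74 for the interaction 0.11, 0.035 and 0.059. There Cd74 for KO against WT after LPS was 0.044 and H2-Ab1 for the interaction 0.071 without either term, and Ciita for the interaction 0.13 with the set term and 0.14 with the block. The cause was not tested.

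On leaving out each library in turn, the log2 values whose sign turned ranged as follows. For LPS in WT they were -0.68 to 0.29 for Ciita. For LPS in KO they were -0.057 to 0.86 for H2-Aa, -0.41 to 0.0097 for H2-Eb1, -0.056 to 0.52 for Cd74, -0.63 to 0.015 for Ciita. For LPS over both they were -0.024 to 0.28 for H2-Eb1, -0.45 to 0.031 for Ciita, -0.011 to 0.066 for H2-DMa. For KO against WT after saline they were -0.33 to 0.53 for H2-Aa, -0.043 to 1.03 for H2-Ab1, -0.43 to 0.15 for Cd74, -0.20 to 0.00012 for H2-DMb1. For KO against WT after LPS they were -0.084 to 0.25 for H2-Ab1, -0.12 to 0.40 for H2-Eb1. For the interaction they were -0.94 to 0.13 for H2-Ab1, -0.52 to 0.45 for Ciita, -0.34 to 0.036 for H2-DMb1.

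Counts of all genes called moved as follows, in the order LPS in WT, LPS in KO, LPS over both, KO against WT after saline and after LPS: 0, 1, 7, 28 and 24 as reported; DESeq2's Wald test 2, 7, 19, 48 and 53; replicate block 3, 5, 27, 59 and 63; set term 3, 7, 24, 47 and 54; replicates 1 and 2 alone 0, 1, 0, 3 and 4; replicates 3 to 5 alone 0, 2, 5, 500 and 118; without the 3 libraries 1, 1, 1, 30 and 16, with the set term 2, 5, 12, 60 and 42, and with the block 1, 2, 4, 55 and 28. The block changed no member's call. On leaving out each library in turn the counts were 0 to 1, 0 to 2, 4 to 9, 19 to 31 and 16 to 30. The 1 gene called for LPS in KO was lost without KO LPS 2, 3, 4 or 5 or KO saline 1, 3, 4 or 5, and 2 were called without WT saline 1; for LPS in WT 1 was called without KO LPS 1; for LPS over both 4 were called without WT LPS 3 or 4, WT saline 2, 3 or 4, KO LPS 1, or KO saline 1, 3 or 4. The interaction called 0 genes in every setting run. The 3 chains had 4 to 58 reads per library and Ciita 0 to 49, and the 95% interval of the H2-Aa difference after LPS in WT spans folds of 0.889 to 3.79; how much of that width is counting error was not tested. For the genes outside class II, whose alternatives were chosen after seeing the data, Lag3 and Fkbp5 (2 comparisons) lost their call in replicates 1 and 2 alone, and H2-D1 there, in replicates 3 to 5 alone and without the 3 libraries (with the block too, adjusted p = 0.207).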

Other observations

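Ciita differed between genotypes in opposite ways in the library sets, a pattern noticed after its values were seen. In replicates 1 and 2 it averaged 0.893 ± 0.266 CPM in the 4 KO libraries (lowest 0.582, highest 1.12) and 1.82 ± 0.193 CPM in the 4 WT libraries (lowest 1.54, highest 1.97), with no overlap. In replicates 3 to 5 it averaged 0.448 ± 0.0900 CPM in the 6 KO libraries and 0.284 ± 0.188 CPM in the 6 WT libraries, with overlap. Within replicates 1 and 2 the knockout minus wild-type log2 difference was -0.99 after saline and -1.02 after LPS. Neither passed edgeR's quasi-likelihood test (adjusted p = 0.958 and 0.959). The share of all genes whose genotypes did not overlap within replicates 1 and 2 was not computed.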
